A study of Drosophila melanogaster with 32 samples.

Results

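The esg line of Drosophila melanogaster carries a P{GT1} transposon just downstream of escargot (esg), at cytological position 35D2 on chromosome arm 2L, and was compared with 6 other insertion lines of the same background, all chosen from a screen for life span. The comparison took the 4 esg arrays (2 of males and 2 of females) and the 24 arrays of lines pyd, mub, crol, CG10990, CG9238 and BG00817, out of 32 arrays in the series, with sex as a covariate. The 4 control arrays, of the w1118 Canton S F strain without an insertion, were left out of the comparison and are given beside it. The insertion codes were BG01042 for esg, BG00028 for pyd, BG00043 for mub, BG00346 for crol, BG00495 for CG10990, BG00761 for CG9238 and BG00817 for the line named by its code, whose exact insertion site was not known. All insertions were homozygous and co-isogenic with the control, and all RNA came from whole virgin flies of 42 days, pooled and hybridised to Affymetrix Drosophila Genome 2.0 arrays. Each line stands for 1 insertion, so the 4 esg arrays sample 1 genotype, and nothing in the sources says that the 2 pools of a sex came from separate cultures. The p-values therefore measure the spread between these arrays. No label gives a hybridisation batch, so line and batch cannot be told apart.

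Escargot is a zinc finger transcription factor of the Snail family that mostly represses its targets. It is known for keeping stem and progenitor cells undifferentiated in the adult midgut, where it marks intestinal stem cells and enteroblasts, and for maintaining stem cells of the testis and diploidy of imaginal cells. Loss of escargot from gut progenitors lets them differentiate into enterocytes, which secrete digestive enzymes, or into hormone-secreting enteroendocrine cells, and Notch and JAK-STAT signalling act on the same cells.

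Values are MAS5 signals in arbitrary units, which scale each array to a trimmed mean of 500, and differences are in log2 signal, esg minus the mean of the other lines. A probe set was kept when both replicates of at least 1 line and sex reached a signal of 50, which left 12484. Median signals over the whole array were 129 to 131 in esg males and 59 to 60.2 in esg females, inside the ranges of the 6 lines (117 to 143 and 49.2 to 72.3). The esg replicates correlated at 0.985 in males and 0.977 in females, in a series range of 0.964 to 0.985, and no 2 arrays held identical values. The log2 ratio of 3′ over 5′ signal in 3 pairs of array control probe sets, a measure of RNA integrity and labelling, was 1.389 to 1.523 on the esg arrays, 0.748 to 1.674 in the 6 lines and 0.858 to 1.003 in the control, and its part in the results was not tested. Tissue and sex markers stood where the labels put them: the gut trypsin betaTry read 11655 to 12436 in esg, the vitellogenin gene Yp1 read 11635 to 12834 in esg females against at most 129 in esg males, and the seminal fluid gene SP read 5661 to 5938 in esg males against at most 17.6 in esg females. In whole flies, fewer cells of a type and less RNA per cell cannot be told apart. The median absolute log2 difference between esg and each other line was 0.134 to 0.22 in males and 0.118 to 0.263 in females, and that between esg and the control was 0.135 in males and 0.216 in females.

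The esg transcript itself did not differ between the esg line and the others. Its signal was 175 and 115 in the 2 esg male pools, and the 12 male arrays of the other lines ran from 109 through a median of 158 to 263. In females the esg line gave 103 and 111 against 62.2, 120.5 and 167 as lowest, median and highest of the other lines. The control read 145 and 160.5 in males and 70.2 and 69.7 in females. All 4 esg arrays thus lay inside the range of the other lines, and the difference was -0.19 ± 0.20 (SE; limma adjusted p = 0.848). The highest male signals of esg were in BG00817 (263 and 256) and the highest female signal was in mub (167).

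Neither did the genes around the insertion. The 5 nearest kept genes on each side of esg in the RefSeq gene table were nht, CG15262, ms(2)35Ci, CG15260 and CG15263 on one side and CG15258, CG4161, Tim17b2, lace and Skadu on the other. None of these 10 was called by limma in the comparison over both sexes, 1 had an unadjusted p under 0.05, and none was called with a mean fitted for each line and sex. In males, where all of them reached the floor in the esg line, the log2 differences ran from -0.08 at CG15262 to 0.32 at CG4161. The gene lace, which encodes a subunit of serine palmitoyltransferase, was the one neighbour well expressed in both sexes, with esg signals of 1140 and 1033 in males and 2128 and 2556 in females and a difference of 0.06 ± 0.14. CG15263 reached 50.2 and 101 in esg females, where the other lines ran from 16.2 through 29.2 to 58 and the control read 345 and 264. The other members of the Snail family could not be set beside esg: sna and wor were below the filter, and scrt and the transgene marker white were not measured by a probe set of their own here.

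Across all probe sets the main fit called few differences between esg and the other 6 lines. Of 12484 probe sets, limma called 28 (0.224%; adjusted p no higher than 0.05), with 13 higher (0.104%) and 15 lower (0.12%) in esg, and 1098 had an unadjusted p that low. Put in the place of esg, line CG10990 gave 7 calls, crol 65, CG9238 219, BG00817 291, mub 331 and pyd 615, so esg was second lowest of the 7. These counts depend on the model, since its residual spread holds the differences among the comparison lines. For esg, leaving out mub gave 54 calls, and a fit with the spread between replicate pools alone gave 726. Among the 28 called, 15 had every esg array outside all 12 arrays of the same sex of the other lines. These 15, termed set apart, lay on the same side in males and females with signals raised to 50. Uncalled probe sets were not counted as set apart, so this count also depends on the fit. Among the 726 calls of the fit with the spread between replicate pools alone, 50 were set apart. Of the 28, 22 were assigned to 1 gene symbol and 21 distinct genes, 1 to a pair of genes, and 5 to none. In data simulated on these arrays, with noise drawn independently for each array, the fit recovered 71.5% of 2-fold and 93.5% of 4-fold changes. Arrays of a line are correlated (0.22 over both sexes, 0.49 in the male fit and 0.46 in the female fit), and recovery under that correlation was not simulated.

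The largest difference was in Mal-B1, a maltase that splits disaccharides and short starch chains into glucose. In the esg line its signal was 66 and 26 in males and 21.7 and 55.1 in females. The 12 male arrays of the other lines ran from 898 through 1597 to 3936 and the 12 female arrays from 624 through 865 to 1803, and the control read 1097 and 1385 in males and 1192 and 1076 in females. The gene was thus at or near the detection floor in esg alone, and no array of any other line or of the control came near it. With signals raised to 50 the esg level was at least 23.1-fold lower, and the fitted difference was -5.07 ± 0.34 (adjusted p = 1.4e-10). Males and females gave it separately, at -5.36 and -4.78 (adjusted p = 3.7e-04 and 2.5e-04). Mal-B1 passed the filter only through the other lines, so its p-values carry that selection. The gene lies on 2L, the arm of the esg insertion, and a link with that position was not tested.

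Stlk, which encodes a kinase-like protein of the Ste20 family, had the next smallest p among the named genes. It read 188 and 175 in esg males against 278, 504 and 669.9 as lowest, median and highest of the other lines, and 552 and 435 in esg females against 1136, 1598 and 1882. The control, at 530.2 and 514 in males and 1477 and 2284 in females, sat with the other lines. The difference was -1.52 ± 0.17, a 2.87-fold lower level (adjusted p = 4.6e-06). A second Stlk probe set did not differ, at -0.14 ± 0.11 (adjusted p = 0.794), so the lower signal was read by 1 of its 2 probe sets.

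**Figure D1:**
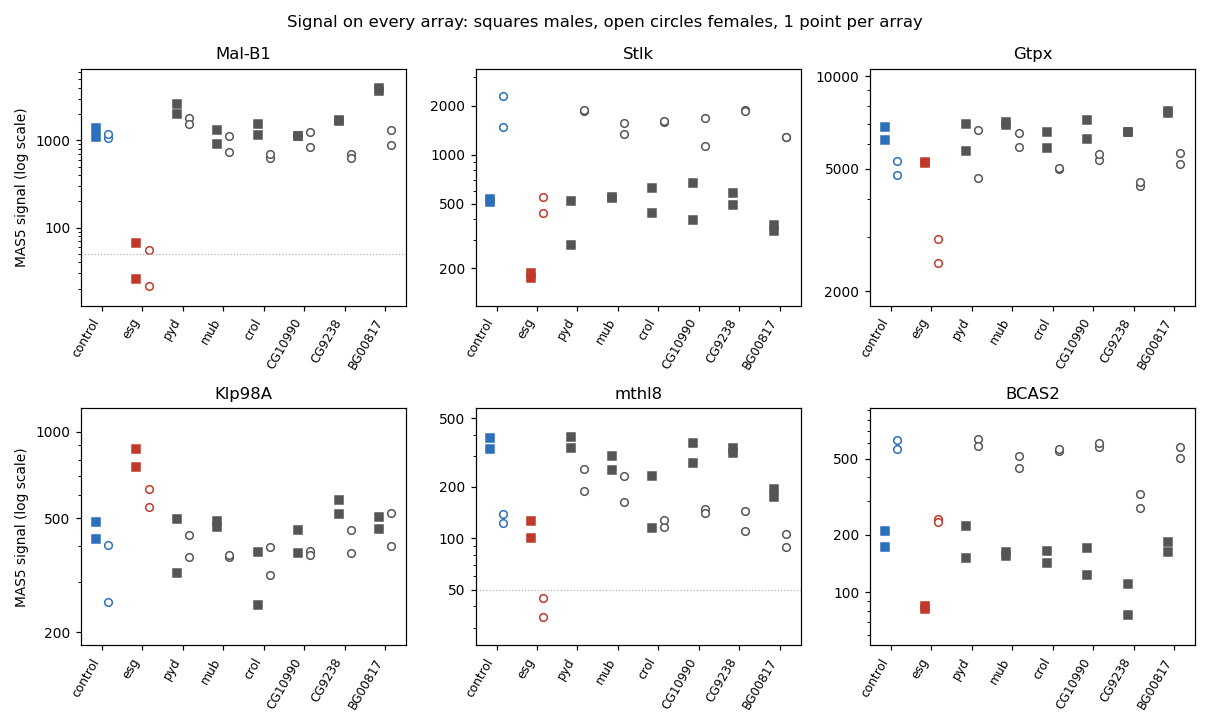
MAS5 signal (log scale) of 6 genes on all 32 arrays by line, with filled squares for males, open circles for females, red for esg, blue for the control and grey for the other 6 lines; the dotted line, where drawn, marks a signal of 50. The esg points of Mal-B1 lie at 21.7 to 66 while no other point is under 624, and in each panel the control points lie with the other lines rather than with esg.

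Both kept probe sets of mthl8, a G protein-coupled receptor of the Methuselah-like family, were lower. The stronger one read 126 and 100.5 in esg males, 115 to 389 in males of the other lines, 34.7 and 44.6 in esg females and 89.3 to 251 in females of the other lines. It was at least 2.58-fold lower in esg (adjusted p = 0.00151), with the first esg male array above the lowest array of crol. The weaker probe set was lower by at least 2.07-fold (adjusted p = 0.0197) and every esg array was under all arrays of the same sex in the other lines. Its call was lost when any 1 esg array was left out (adjusted p 0.0551 to 0.176).

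Gtpx, a peroxidase that uses thioredoxin to reduce peroxides, fell most in females. Its signal was 2956 and 2472 in esg females against 4410, 5259 and 6688 in the other lines, and 5227 and 5277 in esg males against 5727, 6752 and 7692. The female difference was -0.98 and the male difference -0.36, for -0.67 ± 0.11 over both (adjusted p = 0.00152), and the groups did not overlap in either sex. Without the second esg female array the adjusted p was 0.0581.

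BCAS2, a spliceosome subunit, read 84.9 and 81.8 in esg males and 242 and 232 in esg females, against medians of 158 and 553 in the other lines and control values of 171 and 209 in males and 627 and 559 in females. The difference was -0.95 ± 0.19 (adjusted p = 0.0213). Males of CG9238, at 76.1 on one array, overlapped esg males, and the call was lost without any 1 esg array (0.0923 to 0.192) or without pyd, crol, CG10990 or BG00817 (up to 0.0796).

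Among genes higher in esg than in the others and the control, Klp98A, a kinesin motor that moves endosomes, read 873 and 754 in esg males against 249, 462 and 577 and 546 and 634 in esg females against 318, 380.2 and 521. The control read 484 and 423 in males and 254 and 404 in females. The difference was 0.75 ± 0.14 (adjusted p = 0.0133), with no overlap. The call was lost without either esg male array or the second esg female array (up to 0.164) and without CG10990 (0.0558). CG14259 was likewise set apart, at 1659 and 1337 in males and 681 and 603 in females against at most 1214 and 455 in the other lines (0.77 ± 0.15, adjusted p = 0.0115). Its call was lost without the first esg male array or either esg female array (up to 0.14).

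CG16700 read 2163 and 3006 in esg females against 859, 1081 and 1259 in the other lines, and 614 and 624 in esg males against 474, 537 and 671 (0.72 ± 0.14 over both, adjusted p = 0.0163). The females did not overlap and the males did. It fell out of the calls without either esg female array (up to 0.396) and without CG10990 or BG00817 (up to 0.0558). CG44153 (esg 17.5 to 35.9) was under the floor of 50 on every esg array and on most of the others, so no fold was given, and it was not called when signals were raised to 50. AdoR, the adenosine receptor, read 20.2 to 35.9 in esg, 26.1 to 69.1 in the other lines and 23.7 to 41 in the control, and RabX2, a Rab family GTPase, read 2.89 to 4.38 in esg and up to 87.9 in the other lines. Neither was called with signals raised to 50. CG44153, AdoR and RabX2 passed the filter only through the other lines, so their p-values carry that selection. With 1 esg array left out the adjusted p reached 0.323 for CG44153, 0.237 for AdoR and 0.126 for RabX2.

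The called probe sets without a gene symbol were 5. Probe set 1635017_at read 111, 34.2, 112 and 100.1 on the esg arrays, while the other lines reached 27.8 at most and the control 9.86, an increase of at least 1.78-fold (adjusted p = 0.00151). It passed the filter only through the esg females, where it was high, so its p-value carries that selection. The 34.2 in esg males and every array of the other lines and the control were under the floor. Probe set 1633377_at read 3.13 to 26.6 in esg and 42.1 to 166 in the other lines, at least 2.05-fold lower (adjusted p = 2.8e-07). This probe set and 1637850_at were under 50 on every esg array. Both passed the filter only through the other lines, so their p-values carry that selection. Probe set 1632295_s_at read 961, 914, 433 and 416 in esg, above all arrays of the same sex in the other lines (at most 709 and 319.6) and in the control (at most 583 and 269), a difference of 0.77 ± 0.12 (adjusted p = 0.00117). The other two, 1637850_at (11.1 to 43.4 in esg, under the floor) and 1624819_s_at (106 to 448 in esg, at most 3969 in the other lines), were lost without the first esg male array (adjusted p = 0.0703) and without any 1 esg array (0.161 to 0.197), respectively. The second of these was lost for 14 of the 28 single arrays in all, for 4 lines left out in turn (up to 0.13) and with the replicate number as a block.

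In a second group of called genes the control mean was nearer to esg than to the other 6 lines, though not always at the esg level. Of 10 called probe sets whose control mean was nearer to esg than to the 6 lines, 7 lie on the X chromosome, which does not carry the esg insertion. The probe set shared by Gss1 and Gss2, neighbouring genes for glutathione synthetase, read 2158 and 2063 in esg males and 1994 and 2297 in control males, while the other 12 male arrays ran from 806 through 967 to 1135. In females it read 1240 and 1200 in esg, 1306 and 1018 in the control and 379, 533 and 823 in the other lines. esg and control overlapped and both were above every array of the same sex in the 6 lines (1.14 ± 0.13, 2.21-fold, adjusted p = 7.3e-06), and the control was -0.03 from esg and 1.11 from the 6 lines.

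nonA, an RNA-binding protein needed for normal vision and courtship song, also had esg and the control above every array of the same sex in the 6 lines at 1 of its 3 probe sets. The esg line read 338 and 385 in males and 237 and 217 in females, the control 401, 398, 178 and 220.4, and the other lines 123, 172 and 263 in males and 65.6, 99 and 114 in females (1.14 ± 0.16, adjusted p = 3.0e-04). The other two nonA probe sets were not called, at 0.31 ± 0.10 (adjusted p = 0.368) and -0.18 ± 0.10 (adjusted p = 0.627), and in them the control was nearer the 6 lines than esg.

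Prosalpha4, an alpha subunit of the 20S proteasome, and kat80, the regulatory subunit of the microtubule-severing enzyme katanin, are 1 protein-coding gene apart in the RefSeq order of Release 6, with 20 more between Prosalpha4 and nonA. Prosalpha4 read 2724 and 2906 in esg males, 2797 and 2578 in control males and at most 2295 in the other lines, and 4075 and 3925 in esg females, 3990 and 4071 in control females and at most 3229 in the other lines (0.48 ± 0.08, adjusted p = 0.00119). kat80 went the other way, with 222 and 208 in esg males, 184 and 181 in control males and at least 249.7 in the others, and 712 and 589 in esg females against 804 and 951 in the control and at least 929.8 in the others (-0.64 ± 0.10, adjusted p = 0.00151). In both genes the esg arrays did not overlap the 6 lines.

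The non-coding RNA lncRNA:CR32553 was at 183 and 182 in esg males and 157 and 175 in control males, while no male array of the other lines passed 49.6. In females it read 68.4 and 88.7 in esg, 51.2 and 47.2 in the control and at most 28.2 in the other lines. The 6 lines were thus under the floor in both sexes, and esg was at least 2.39-fold higher (adjusted p = 0.00207). The probe set passed the filter, which left out the control, only through esg, so its p-value carries that selection. Antdh, an antennal short-chain dehydrogenase, read 875 and 818 in esg males, 814 and 745 in control males and 174, 305 and 640.1 in the others. In females esg read 615 and 556, the control 402 and 338, and the others 84.8, 113 and 592. The highest of the 6 was mub, at 640 and 553 in males, under both esg males, and 592 and 402 in females, where 1 array reached the esg range (1.70 ± 0.36, adjusted p = 0.0345). Its call was lost without any 1 esg array (0.0925 to 0.275), without CG10990 females replicate 2 or CG9238 females replicate 1, and without any line but mub (up to 0.13).

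**Figure D2:**
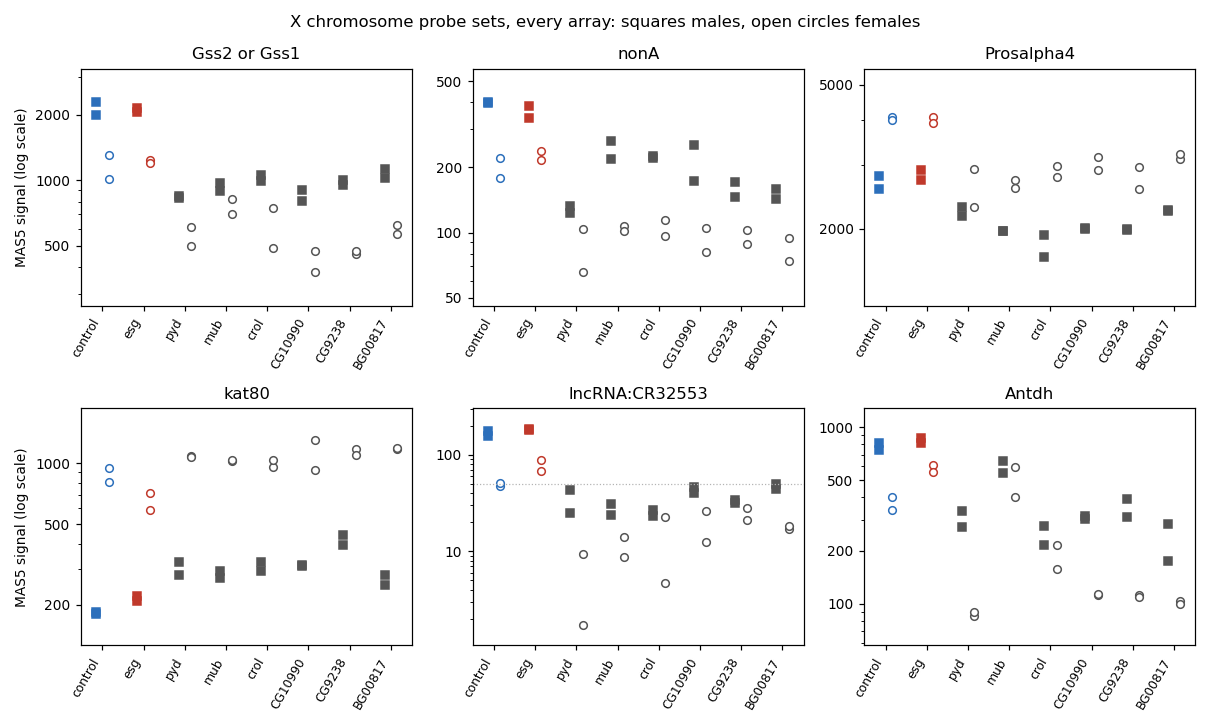
MAS5 signal (log scale) of 6 called X chromosome probe sets on all 32 arrays by line, with filled squares for males, open circles for females, red for esg, blue for the control and grey for the other 6 lines; the dotted line, where drawn, marks a signal of 50. In the panels for Gss2 or Gss1, nonA and Prosalpha4 the esg and control points lie above every point of the same sex in the 6 lines, and in kat80 they lie below them except for 1 control female at 951, above the lowest female of CG10990 at 929.8.

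CG3857, also on the X, was intermediate: 397 and 397 in esg males, 576 and 545 in the control and 523, 1148 and 1661 in the other lines, with crol the lowest of these, and 200.4 and 159.7 in esg females, 447 and 335 in the control and 349, 799.9 and 1342 in the others (-1.73 ± 0.27, 3.31-fold lower, adjusted p = 0.00119). A second CG3857 probe set gave -0.38 ± 0.17 and was not called. Counted over the called probe sets with 1 symbol, 9 of 22 lay on the X (40.9%), where 16.2% of the kept probe sets lay. With the spread between replicate pools alone (the second fit, described with the gene lists), 129 probe sets on the X were called, 7.26% of those kept there, against 5.89% over all chromosomes, 7.64% on 3L and 12.2% on chromosome 4. By chromosome arm the others were 3 on 2L, the arm of the esg insertion (Mal-B1, CG44153 and Vm26Ac), 1 on 2R, 4 on 3L, 4 on 3R and 1 on chromosome 4. The control mean was nearer to esg than to the 6 lines in 6 of the 9 on the X and in 3 of the 13 elsewhere (Act79B, AdoR and Vm26Ac). The same share over all kept probe sets, on the X or elsewhere, was not computed, so these counts have no background beside them. Over all 28 it was nearer to esg in 10.

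**Figure D3:**
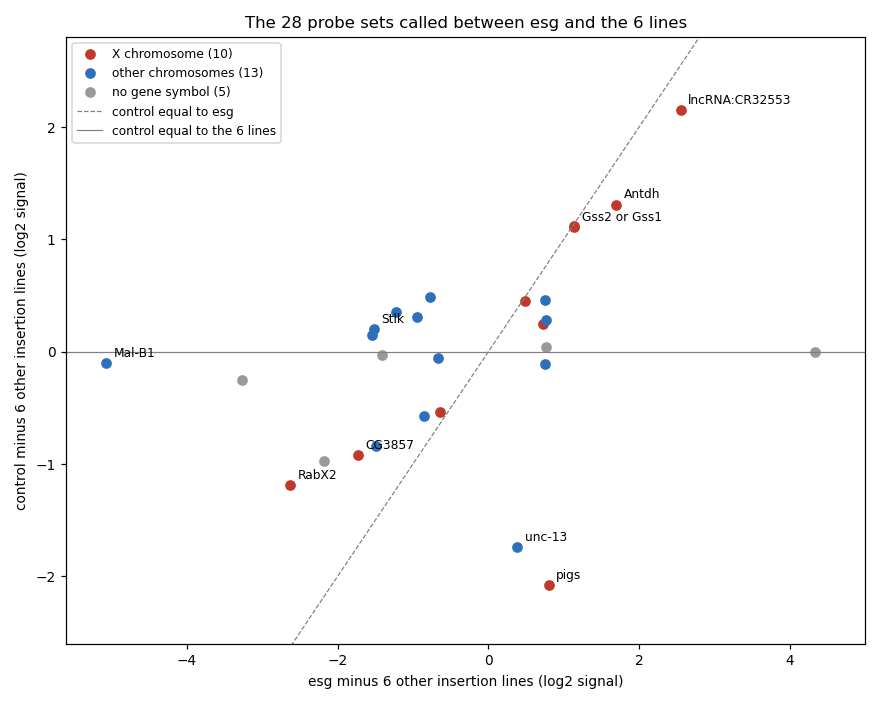
Each point is 1 of the 28 called probe sets, with the esg difference from the 6 lines on the x axis and the control difference from the same 6 lines on the y axis (both log2 signal), coloured red for the X chromosome, blue for other chromosomes and grey for no gene symbol. Points on the dashed line have the control at the esg level, as Gss2 or Gss1 does, and points on the solid line have the control at the level of the 6 lines, as Mal-B1 nearly does; unc-13 and pigs lie far from both.

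In unc-13 and pigs, esg and the other lines all stood away from the control. unc-13, which primes synaptic vesicles for release and lies on chromosome 4, read 1674 and 1502 in esg males, 1106 to 1466 in the other lines and 471 and 445 in the control. In females the values were 933 and 864, then 547 to 749.9, then 163 and 167. The control was 1.74 log2 units under the 6 lines, and esg was 0.38 ± 0.08 above them (adjusted p = 0.0324). pigs, a cytoskeletal linker protein on the X, read 720.3 and 766 in esg males against 326 to 640.4 in the other lines and 75.7 and 134 in the control, and 401 and 424 in esg females against 160.3 to 476 and 65.7 and 46.6 (0.80 ± 0.17, adjusted p = 0.0372). Females of pyd overlapped esg in pigs. Both calls were lost without any 1 esg array (unc-13 0.0624 to 0.297, pigs 0.136 to 0.267) and without crol, CG10990 or BG00817, unc-13 also without pyd (up to 0.0892), and pigs also without CG9238 (up to 0.126) and without 6 single arrays of other lines (up to 0.0544).

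The 12 calls that held whichever array or line was left out were Mal-B1, Stlk, Gss1 or Gss2, nonA, CG3857, Prosalpha4, kat80, lncRNA:CR32553, 1 of the 2 mthl8 probe sets and 3 without a symbol. Of these, lncRNA:CR32553 and probe set 1635017_at passed the filter only through esg, and Mal-B1 and probe set 1633377_at only through the other lines. Of the 28, 16 were lost when at least 1 esg array was left out. Only Mal-B1, Stlk and probe set 1633377_at were called under every alternative run.

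Tested apart, esg males differed from males of the other lines in 7 probe sets (0.0561%; 3 higher and 4 lower) and esg females from females of the other lines in 9 (0.0721%; 2 higher and 7 lower). The male and female arrays are separate samples of the same line, so their agreement is not independent of line or batch. Of the 7 male calls 6 had the same sign in females, and of the 9 female calls 8 had the same sign in males. Over all probe sets, not matched for the size of the difference, 58.4% had the same sign in both. Across the 12484 probe sets the male and female differences correlated at r = 0.26, as a description over genes that share the lines' insertions. Both fits called Mal-B1 and probe set 1633377_at.

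CG6923 was called in males only, at 709 and 549 in esg against 141, 210.1 and 335 in the other lines and 228 and 212 in the control (1.56, adjusted p = 0.014). In females it read 496 and 854 in esg and 379 to 683 in the others. CG12061, on the X, was lower in males, at 43.2 and 17 against 68.5, 125 and 185 (at least 2.42-fold, adjusted p = 0.0361), and under the floor in females of every line. In females, phtm, a cytochrome P450 of ecdysteroid synthesis, read 8.46 and 5.92 in esg against 25.7, 46.3 and 95.6 in the others (adjusted p = 0.0262). The esg values and most of the others were under the floor, so no fold was given. CG12061 and phtm passed the filter only through the other lines, so their p-values carry that selection. Vm34Ca, a vitelline membrane protein made by ovarian follicle cells, read 4794 and 8879 in esg females against 11659, 14228 and 18156 in the other lines and 14228 and 11463 in the control. Its female difference was -1.14 (adjusted p = 0.0486).

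The test of a difference between the sexes in the esg effect called no probe set (limma, 0 of 12484, with 293 at an unadjusted p of at most 0.05; fits with quantile normalised signals and with the line as a random block each called 3). The smallest p-values went to CG16700 and CG12061 (male minus female difference -1.06 for CG16700, none given for CG12061 because all esg arrays were under the floor, both 1.4e-05 unadjusted and 0.087 adjusted). Next came CG13326, CG31088 and CG32945, each at 189.9 or more in esg males and at 5.17 or less in esg females, where the other lines were also under the floor.

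**Figure D4:**
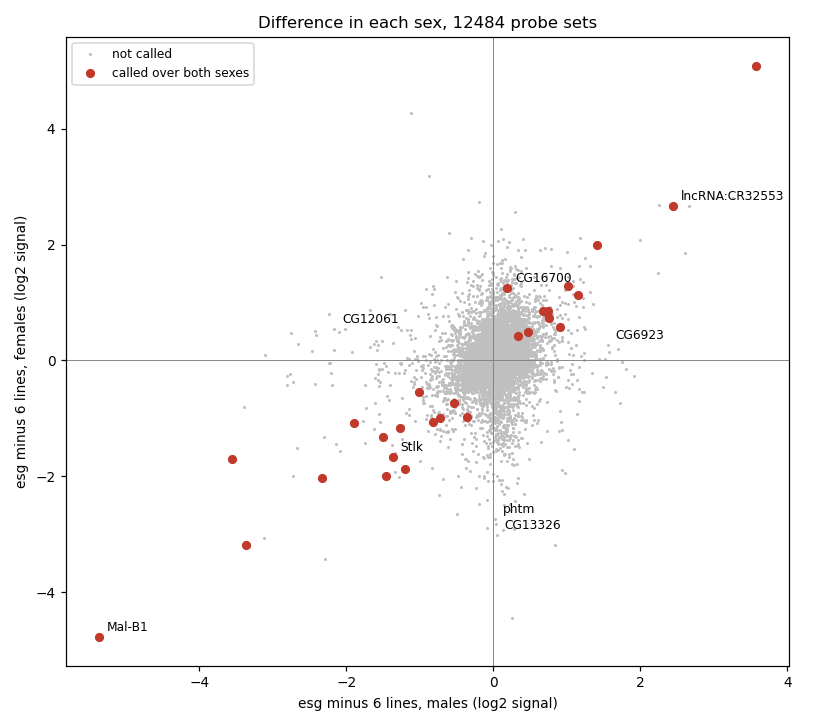
esg minus the 6 lines (log2 signal) in males on the x axis and in females on the y axis for 12484 probe sets, with the 28 called over both sexes in red and the rest in grey. All 28 red points have the same sign in both sexes, Mal-B1 lies at -5.36 and -4.78, and phtm and CG12061 lie near an axis.

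Gene lists were read against a median difference of 0.02 over all probe sets. In the first fit, the main one, 1098 of 12484 probe sets had an unadjusted p no higher than 0.05. Members were also tested in a second limma fit, which gives each line and sex its own mean and sets esg against the average of the 6 lines with the spread between replicate pools alone. It called 726 of 12484 probe sets, or 5.82% (512 higher, 4.1%, and 214 lower, 1.71%), since a gene in which a single other line stands far away can be called there. The digestive trypsins show this: lambdaTry, betaTry and epsilonTry were called higher in esg, but esg at 11655 to 12436 for betaTry sat with the control and 5 of the lines, and only crol was low, at 201 to 416.

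Genes of the cells in which escargot acts showed small differences. Of 15 intestinal progenitor genes 12 were kept, none was called in either fit (0 had an unadjusted p under 0.05 in the first), and the median was -0.07. Array by array the list median was 0.06 and -0.26 in esg males against -0.18 to 0.33 in males of the other lines, so 1 esg male was under them, and 0.09 and -0.06 in esg females against -0.18 to 0.34. The Notch ligand Delta read 92.6 and 64.5 in esg males and 791 and 879.7 in esg females, inside the other lines' 51.9 to 179 and 533 to 1029. Of 12 kept enteroendocrine genes none was called (3 at an unadjusted p under 0.05), and the second fit called 1, the gut and fat body hormone gene CCHa2, at 1921 and 1695 in esg females against 614, 938 and 1762 (0.39 over both). Of 15 kept Notch pathway genes none was called (2 unadjusted), and the second fit called 2 higher, the glycosyltransferase gene fng (895 and 585 in esg males against 383 to 593, a difference of 0.42 over both sexes) and the co-activator gene mam (0.33). The 7 kept JAK-STAT genes had a median of 0.01 and no call in either fit (0 unadjusted). Of the Snail family list 2 genes were kept, with a median of -0.13.

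Of 15 kept amylases, maltases and lysozymes 1 was called, Mal-B1 (6 unadjusted), and the list median was 0.22, with 0.0 in males and 0.54 in females. On the esg female arrays it was 0.55 and 0.48, inside the other lines' -0.28 to 0.82, and the control females read 0.57 and 0.18. The second fit called 4 higher and 3 lower, Mal-B1, Mal-B2 and the lysozyme gene LysP. Mal-B2, the other maltase of the Mal-B pair, read 4849 and 4922 in esg males against 4949 to 8008 in the other lines, a difference of -0.32 that the first fit did not call (adjusted p = 0.397). Mal-A4 and the amylase-related gene Amyrel were higher by 0.58 and 0.91 in the second fit, from females: Amyrel read 867 and 657 in esg females against 128, 208 and 1064. Of 27 kept serine proteases none was called (3 unadjusted) and the median was -0.04, with 4 higher and 2 lower in the second fit.

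Antimicrobial peptide genes were the list farthest from the background, in males. None of the 14 kept was called in the first fit (3 unadjusted), 5 were lower and 0 higher in the second, and the median was -0.67 over both sexes, -0.83 in males and 0.06 in females. Taken array by array, the list median against the 6-line mean was -0.69 and -1.0 in esg males, -0.56 to 0.57 in males of the other lines and 0.45 and 0.49 in control males, so both esg males were under all others. In females esg, at 0.06 and -0.03, lay inside the others' -0.72 to 0.87. The 5 genes were 4 of the Drosomycin family of antifungal peptides (Drs, Drsl3, Drsl4 and Drsl5) and AttD, an attacin. Drsl4 read 1040 and 1062 in esg males and 567 and 491 in esg females, the other lines 809.8, 4295 and 13189 and 483, 1214 and 5869, and the control 940.3, 880.0, 417 and 319.7. Its level in esg was thus at the low end of the 6 lines and next to the control (-1.58 in both fits, adjusted p = 0.559 in the first and 9.7e-08 in the second). AttD read 67.7 and 33.7 in esg males, where the others ran from 58.5 through 252 to 1108 and the control read 832 and 324. Among 25 kept genes of immune recognition and signalling none was called in either fit (median -0.07, 0 unadjusted).

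Genes of muscle contraction were mostly higher. Of 24 kept 1 was called higher and none lower (12 unadjusted), 13 were higher and 0 lower in the second fit, and 21 were above zero, with a median of 0.32. Act79B, the actin of tubular leg and jump muscles, read 7067 and 7308 in esg males against 3032, 4143 and 6005 in the other lines and 1794 and 1657 in esg females against 735, 1078 and 1301 (0.75 ± 0.15, 1.68-fold, adjusted p = 0.0155). The control, at 5757 and 6133 in males and 1435 and 1353 in females, lay between esg and the medians of the other lines. The call for Act79B was lost without any 1 esg array (0.0701 to 0.127) and without BG00817 (0.0512). Act87E, another muscle actin, and Prm, the paramyosin of thick filaments, were higher by 0.61 and 0.81 in the second fit only. The list median was 0.22 and 0.24 on the esg male arrays against -0.25 to 0.21 in the other lines, and 0.17 and 0.29 in the control males, and the esg females (0.4 and 0.33) lay inside the others' range.

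Neural and sensory lists had medians above that of all probe sets, more so in females. The 24 kept genes of synapses and ion channels had a median of 0.25 (0.11 in males and 0.34 in females), with 1 called higher, unc-13 (6 unadjusted), and 6 higher and none lower in the second fit. The largest of these, Syt7, a synaptotagmin that acts as a calcium sensor in secretion, fell into 2 levels across the lines. It read 669 and 608 in esg males and 202 and 243 in esg females, close to the control (523, 537, 121 and 190), to CG10990 (674, 678, 187 and 171) and to BG00817 (671, 587, 146 and 172), and at most 29.6 in pyd, mub, crol and CG9238. Of 33 kept odorant-binding proteins none was called (7 unadjusted), and 9 were higher and none lower in the second fit (median 0.11). Of 25 kept phototransduction genes none was called (5 unadjusted), and 5 were higher and none lower (median 0.14). On the esg female arrays these 3 list medians were 0.21 to 0.38, each inside the range of the other lines' females.

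For cytosolic ribosomal proteins the differences of all 29 kept were below zero, with a median of -0.23 that was -0.02 under quantile normalisation, and none was called in the first fit (23 unadjusted) and 10 lower in the second. RpL28 read 10916 and 9852 in esg males against 11568, 12838 and 15375 in the other lines. These are among the brightest probe sets of the array, and brightness moved with the difference: the median was -0.2 over the 156 probe sets with a mean signal of 10000 or more, 126 of the 129 that were not ribosomal were also below zero, and the median was 0.02 for signals from 1000 to 5000. The median of 34 ribosome biogenesis genes was -0.03.

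**Figure D5:**
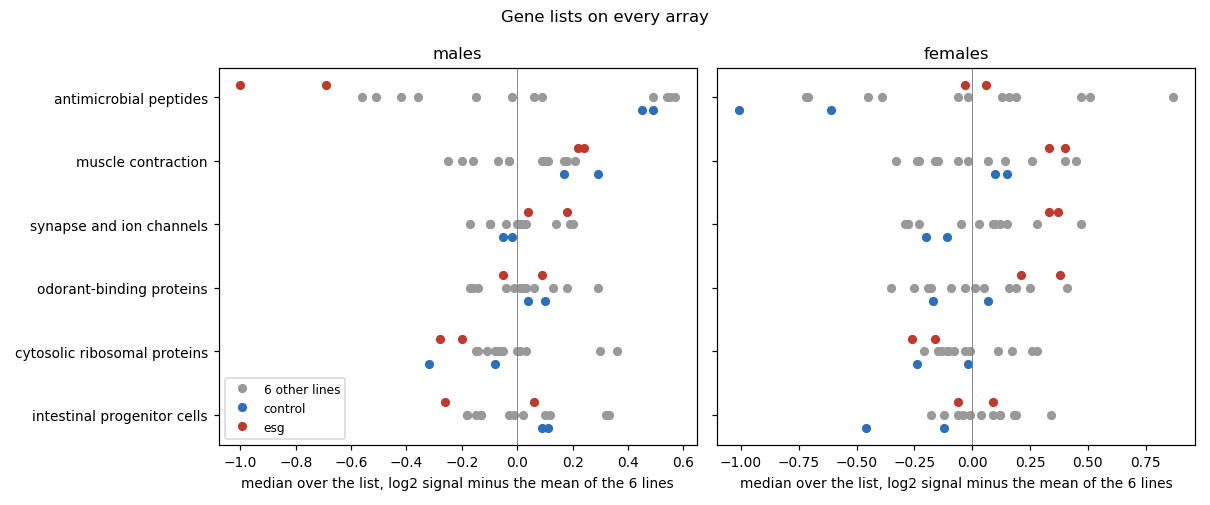
Median log2 signal over the kept members of 6 gene lists on each array, minus the mean of the 6 other lines of the same sex, for males (left) and females (right), with 1 point per array in red for esg, blue for the control and grey for the other 6 lines. Both esg males lie under all others in antimicrobial peptides (-0.69 and -1.0), and for intestinal progenitor genes 1 esg male (-0.26) lies under the grey points while the other 3 esg points lie inside them.

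Reproductive lists held 1 called member. Of 21 kept yolk, vitelline membrane and chorion genes 1 was called lower, the vitelline membrane gene Vm26Ac, and the median was -0.25. Vm26Ac read 95 and 265 in esg females against 239, 339 and 479.7 in the other lines and 196 and 193 in the control, so 1 esg array lay inside the range of the 6 lines. In males every array was under the floor (esg 4.07 and 2.82, the other lines at most 26.3). The call over both sexes (adjusted p = 0.0443) was not made with signals raised to 50. Its call was lost for 20 of the 28 arrays left out in turn, 3 of them esg arrays (up to 0.391), and without any line but mub (up to 0.104). Medians were -0.01 for 33 ovary genes, -0.11 for 31 testis and sperm genes and -0.04 for 27 accessory gland genes, with no call in the first fit (4 of 91 unadjusted) and 1 in the second. These medians pool both sexes. In the sex that has the organ they were -0.09 for ovary genes, 0.13 for testis and sperm genes and -0.22 for accessory gland genes. For each of these lists the esg arrays of that sex lay inside the range of the other lines.

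Among lists of metabolism, stress and cell upkeep, 1 member was called, Prosalpha4 of 26 kept proteasome genes (median -0.04). The other lists had no call by limma in the first fit and medians from -0.08 for glycolysis and trehalose (20 kept) to 0.12 for eye pigment (16 kept): cytochrome P450s 0.04 (67), glutathione and UDP-glycosyl transferases 0.11 (39), heat shock and Turandot genes -0.04 (12), lipid storage and transport 0.03 (34), insulin signalling 0.07 (16), respiratory chain -0.05 (34), mRNA splicing -0.02 (31), DNA replication and cell cycle 0.01 (35), circadian clock 0.04 (14), cuticle and chitin 0.11 (33) and proton pump and Malpighian tubule -0.04 (27). With ribosome biogenesis, these lists held 412 genes, of which 38 had an unadjusted p under 0.05 and 30 were called in the second fit, at most 5 higher and at most 2 lower in any list. The P450 gene Cyp6a8 was 1 of 2 lower there, at 717 and 732 in esg females against 924, 1128 and 1606 (-0.44).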

How the data were processed

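RNA from pools of whole flies was hybridised to Affymetrix Drosophila Genome 2.0 arrays, 2 arrays for each line and sex. The authors deposited MAS5 signal intensities, linear and scaled per array (MAS5 version not given in the sources used here). The trimmed mean of every array came out at 500. Signals were taken to log2. Of 18952 probe sets, 183 array controls were left out and 12484 were kept, 11049 with 1 gene symbol in GEO's annotation, 342 with several and 1093 with none. Arrays carry no read depth, and their number limits the precision.

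Tests used limma 3.58.1 in R 4.3.3 (lmFit and eBayes) with Benjamini-Hochberg adjustment over all kept probe sets. Where the dimmer group had an array under 50, folds were computed with signals raised to 50 and are given as "at least". Named genes were esg and its neighbours, the genes set apart, the 5 smallest p-values for each sex and for the interaction, and up to 4 called members of each list. The genes without a symbol, those called but not set apart, and list members named from the second fit were chosen after their values were seen. The comparison, members and lists were chosen with earlier results of these data known. Chromosomes and gene order came from RefSeq (Release 6 plus ISO1 MT). Replicate numbers did not pair the arrays: of 91 pairs of groups, 7 had replicate differences correlated above 0.1 (median 0.0). The fits were tested on simulated data with independent noise on each array.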

Additional observations from a re-analysis of the deposited data

Results flagged for a closer look

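One signal lay outside the probe sets compared. An array control probe set without a gene symbol here read 83.2 and 59 on the esg male arrays and 36.5 and 54.5 on the esg female arrays, against 15.1 to 24.2 on the 4 control arrays. The other insertion lines read 50.7 to 3022, with the lowest value in CG10990 and the highest in CG9238, so all 4 esg arrays were above the control and 1 esg female array was under every array of the other insertion lines. The groups of 2 arrays are too small for a test of single arrays that stand apart.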

How the results depend on the processing

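The main limits are 4 arrays of 1 insertion line, an unknown batch and signals near the floor. Against 28 calls over both sexes and 15 probe sets set apart, a mean for each line and sex gave 726 and 50, untransformed signal in that model 869 and 50, 1 value per line and sex 5 and 3, the line as a random block (correlation 0.22) 8 and 6, and the control arrays added to the comparison 18 and 9. In males (7 calls) these gave 147, 138, 1 (1 value per line and sex) and 11 with signals raised to 50, and in females (9 calls) 276, 305, 0 (322 at an unadjusted p of at most 0.05) and 29, with 14 under quantile normalisation, 4 without the filter, 2 with the line as a random block and 5 with the replicate number as a block. Of the esg by sex calls (0), quantile normalisation gave 3, signals raised to 50 gave 3, a mean for each line and sex 19, the line as a random block 3 and untransformed signal 97. The cause was not tested. The replicate block kept 27 of the 28 calls, and the arrays share only a number.

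Leaving out 1 array or 1 line gave 14 to 54 calls over both sexes, 9 to 34 set apart, 3 to 9 in males, 4 to 11 in females and 0 to 4 by sex. The lowest count over both sexes came without the first esg male array (14), with 16 to 17 without another esg array, 18 without CG10990 and 54 without mub, which also gave the 34 set apart; the 9 came without the second esg female array. Male calls were 3 and 4 without an esg male array and 4 without CG9238. Female calls were 4 and 5 without an esg female array and 5 without the first mub, the second CG10990 or the second BG00817 female array. By sex, 3 came without the first esg female array and 4 without crol. The remaining settings kept these counts within 1.5 times. With signals raised to 50, 18 of 27 calls over both sexes were higher, and with an offset of 32 added 17 of 28, against 13 of 28. No named gene changed sign past the threshold. List medians had no threshold, and several small ones changed sign between settings. Among them were testis and sperm (-0.17 to 0.05), accessory gland (-0.11 to 0.01) and digestive serine proteases (-0.1 to 0.02). Under quantile normalisation the ribosomal median was -0.02. Simulated 2-fold changes, with noise independent between arrays, were recovered in 52% of cases in males, 47% in females and 32% by sex. Arrays of a line correlated at 0.49 in the male fit and 0.46 in the female fit, and recovery at that correlation was not simulated.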
